A study of Mus musculus with 16 samples.

Results

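The sodium-potassium pump (Na,K-ATPase) genes described here are the 3 beta subunit genes Atp1b1, Atp1b2 and Atp1b3 and the 3 FXYD genes Fxyd1, Fxyd5 and Fxyd6. They are 6 of the 51912 genes in the deposited table, were chosen by name, and were followed across all 4 groups of neonatal mouse ventricles. RNA was sequenced from whole ventricles, with tissue from above and below the ligation, of wild type C57BL/6J mice (WT) and of Lrrc10-/- mice in a C57BL/6 background (KO). Mice had sham surgery (SH) or permanent ligation of the left anterior descending coronary artery to give a myocardial infarction (MI) at postnatal day 1, and hearts were taken 7 days later. The sham operation opened and closed the chest without exposing the heart. There were 4 libraries, numbered by the labels as separate replicates, for each combination of genotype and surgery (WT SH, WT MI, KO SH, KO MI), and those of KO MI carry the numbers 1, 2, 3 and 7. The deletion is present in every cell of the animal, so a difference between genotypes need not be limited to cardiomyocytes, and whole ventricle does not show in which cells it arose. The WT mice came from a supplier and are not described as littermates of the KO mice.

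The pump exports sodium and imports potassium against their gradients, and in cardiac muscle it sets the sodium gradient that ion exchangers and action potentials depend on. A pump holds a catalytic alpha subunit, which splits ATP and carries the ions, and a glycosylated beta subunit, which brings the alpha subunit to the membrane and adjusts its affinity for potassium. A small FXYD protein may join them and adjust transport. Fxyd1 encodes phospholemman, the main FXYD protein of heart muscle, which restrains the pump until it is phosphorylated. Atp1b2 is also known as the adhesion molecule on glia, Fxyd5 encodes dysadherin, a protein known from cell adhesion, and Fxyd6 encodes phosphohippolin, best known from brain.

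The promoters of the 3 members whose adjusted p passed between KO SH and WT SH are shown, because these are the members on which the genotype comparisons turn. Each runs from 250 bases before to 50 bases after the start of the canonical transcript in GENCODE M39 on GRCm39, is printed 5′ to 3′ on the strand of the gene, and has 5 searched motifs in capitals. Atp1b1 is the window chr1:164285875-164286174 on the minus strand, Atp1b2 is chr11:69496758-69497057 on the minus strand and Fxyd6 is chr9:45281052-45281351 on the plus strand.
Atp1b1: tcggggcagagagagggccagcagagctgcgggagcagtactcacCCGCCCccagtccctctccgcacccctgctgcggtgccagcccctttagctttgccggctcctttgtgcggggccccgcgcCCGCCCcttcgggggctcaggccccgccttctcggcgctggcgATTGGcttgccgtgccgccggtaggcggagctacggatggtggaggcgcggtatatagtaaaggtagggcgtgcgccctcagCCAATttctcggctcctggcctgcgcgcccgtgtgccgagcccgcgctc
Atp1b2: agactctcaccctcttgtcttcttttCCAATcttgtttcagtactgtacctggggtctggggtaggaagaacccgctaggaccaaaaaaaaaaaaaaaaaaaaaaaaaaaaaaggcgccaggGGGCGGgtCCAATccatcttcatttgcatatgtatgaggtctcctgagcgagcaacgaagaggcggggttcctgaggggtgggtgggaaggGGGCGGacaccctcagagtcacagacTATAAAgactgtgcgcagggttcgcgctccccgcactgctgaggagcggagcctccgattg
Fxyd6: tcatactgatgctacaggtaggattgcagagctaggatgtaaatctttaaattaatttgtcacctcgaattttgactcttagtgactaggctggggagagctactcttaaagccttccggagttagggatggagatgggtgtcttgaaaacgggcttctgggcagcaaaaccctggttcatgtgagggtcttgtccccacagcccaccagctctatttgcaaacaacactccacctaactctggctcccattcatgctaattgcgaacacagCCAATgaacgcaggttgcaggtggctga

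The motifs were the GC box GGGCGG, the CCAAT box CCAAT, the TATA box TATAAA, the E-box CACGTG and the cAMP response element TGACGTCA, each read on both strands, so a match on the other strand appears as its reverse complement. Over 21770 promoters of the same length the shares that held them were 42.5%, 39.9%, 13.2%, 7.81% and 2.44%, in that order. The Atp1b1 window held 2 GC boxes and 2 CCAAT boxes. The Atp1b2 window held 2 GC boxes, 2 CCAAT boxes and 1 TATA box, and was the window of the 6 members with a TATA box. Fxyd6 held 1 CCAAT box, the Atp1b3 window held 6 GC boxes, and the Fxyd1 and Fxyd5 windows held no match. The windows also differed in base composition, with a GC content of 71.0% in Atp1b1, 52.7% in Atp1b2 and 48.0% in Fxyd6 beside a median of 54.3% over all promoters. These are descriptions of letters and not of bound factors.

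The 16 libraries summed to between 33783874 and 57470159 expected counts with a median of 45092798. Levels are given as CPM, the count of a gene scaled to the same total in each library, with the total taken over the tested genes and adjusted by TMM factors. Lrrc10 had 0 counts in all 8 KO libraries and 26.3 to 35.6 CPM in the 8 WT libraries, which puts the KO SH mean at least 424-fold and the KO MI mean at least 428-fold lower than WT, taking 3 counts per library as the floor. The 8 ventricular cardiomyocyte markers, among them Myh6 and Tnnt2, summed to 27395 to 40431 CPM in every library, so the labelled tissue was present throughout. KO MI replicates 2 and 7 stood apart: 10 skeletal muscle genes summed to 61.4 and 87.4 CPM there and to 1.48 to 8.20 CPM in the other 14 libraries, with Pvalb and Tnnc2 at 0 in some libraries of every group. Xist, the RNA of the inactive X chromosome, was over 100 CPM in 0 of 4 WT SH libraries and in 2 of 4 libraries of each other group, although the labels describe groups balanced for sex. The source of the skeletal muscle transcripts in KO MI replicates 2 and 7 was not tested. Results for members and called genes below that depend on those 2 libraries or on a term for Xist are given with both values. In whole ventricle, fewer cells of a type and less RNA per cell cannot be told apart.

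All 6 members passed the filter of at least 10 summed counts in each group. Per kilobase of exon, a scale on which genes can be compared, the mean level over the 16 libraries was 31.0 CPM per kb for Atp1b1, 8.09 for Atp1b3 and 2.48 for Atp1b2. On the same scale the FXYD genes had 3.401 for Fxyd1, 0.962 for Fxyd6 and 0.522 for Fxyd5. Atp1b1 was thus the most abundant beta subunit transcript and Fxyd1 the most abundant FXYD transcript in these ventricles. The order depends on the length used, here the union of all annotated exons, which is longer than most single transcripts.

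**Figure D1:**
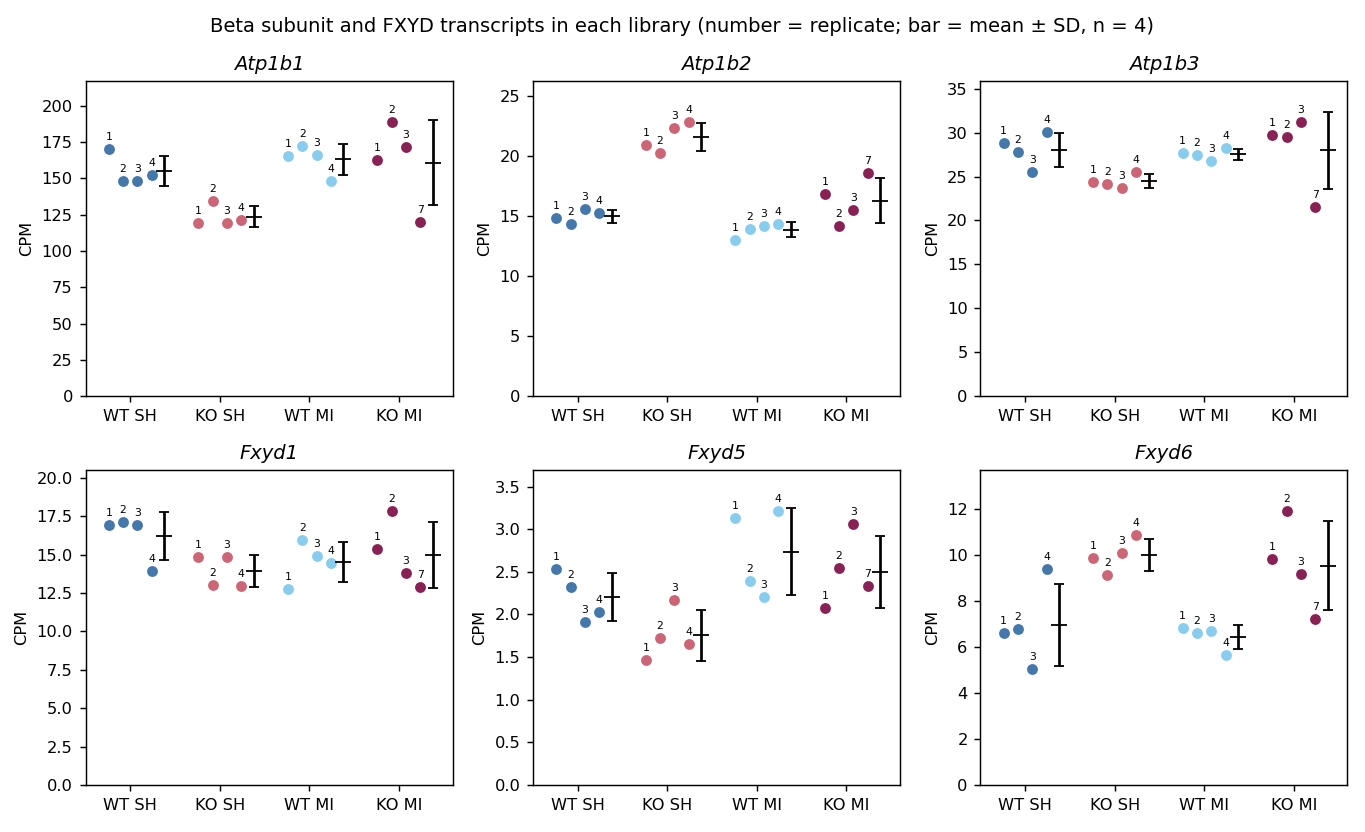
CPM of the 6 members in each library (vertical axis from 0, one panel per gene), with points numbered by replicate and bars giving mean ± SD of the 4 libraries of each group. Atp1b2 is highest in the 4 KO SH libraries (20.3 to 22.8 CPM), Atp1b1 is lowest in KO SH and in KO MI replicate 7, and Fxyd6 is higher in most KO than WT libraries.

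Atp1b2 was the member with the clearest difference by genotype after sham surgery. Its level was 14.8, 14.3, 15.6 and 15.2 CPM in WT SH replicates 1 to 4 and 20.9, 20.3, 22.3 and 22.8 CPM in KO SH replicates 1 to 4. All KO SH libraries lay above all WT SH libraries. The mean of the 4 WT SH libraries was 15.0 ± 0.543 CPM (SD, n = 4) and that of KO SH was 21.6 ± 1.18 CPM, and Atp1b2 rose by a log2 fold change of 0.53 (SE 0.0744), or 1.44-fold. The adjusted p was 0.00041 in the edgeR quasi-likelihood test with Benjamini-Hochberg adjustment over 20159 genes, and the exact two-sided permutation test of the 8 libraries gave p = 0.0286, the smallest that 70 splits allow. With a term for Xist the log2 fold change was 0.56 (adjusted p = 0.000598, edgeR). Without KO SH replicate 4 it was 0.497 (adjusted p = 0.00298), just under the fold of 0.5 that a call needs.

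After infarction the genotypes were closer for Atp1b2. WT MI replicates 1 to 4 had 13.0, 13.9, 14.1 and 14.4 CPM. KO MI replicates 1, 2, 3 and 7 had 16.8, 14.2, 15.5 and 18.5 CPM, and replicate 2 lay within the WT MI range. The log2 fold change of KO MI against WT MI was 0.23 (SE 0.0745, adjusted p = 0.154, edgeR), and without KO MI replicate 2 it was 0.29 with an adjusted p of 0.0474. Within the KO, Atp1b2 was lower after infarction than after sham surgery in every library, by a log2 fold change of -0.41 (SE 0.0739, adjusted p = 0.0027, edgeR), a difference that passed the adjusted p and stayed under the fold of 0.5.

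Atp1b1, the main beta subunit of the heart, ran the other way after sham surgery. WT SH replicates 1 to 4 had 169.9, 148.5, 148.4 and 152.6 CPM, and KO SH replicates 1 to 4 had 119.1, 134.2, 119.6 and 121.4 CPM. Each KO SH library was below each WT SH library. The log2 fold change was -0.33 (SE 0.0993, adjusted p = 0.0525, edgeR; exact permutation p = 0.0286), which passed the adjusted p and not the fold. The adjusted p was 0.0639 to 0.165 when 1 library was left out and stayed under 0.1 in 4 of 8 such fits, being lost without WT SH replicate 1 (0.165) or KO SH replicates 1 (0.129), 3 (0.115) or 4 (0.120).

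Several marker sums moved with the sham differences of Atp1b2 and Atp1b1. The 7 endothelial genes summed to 833 to 876 CPM in KO SH, beside 904 to 928 CPM in WT SH. The 10 macrophage genes summed to 27.1 to 29.5 and 30.6 to 36.8 CPM, and the 5 erythroid genes to 264 to 316 and 339 to 470 CPM. These 3 sums were lower in every KO SH than in every WT SH library, and of their genes Fcgr1 was at 0 in some KO SH libraries. The endothelial genes did not all run this way. The means of Tie1, Vwf and Emcn were 47.4, 27.3 and 19.5 CPM in KO SH, beside 43.6, 23.8 and 19.4 CPM in WT SH. Those of Pecam1, Cdh5, Kdr and Tek were lower in KO SH. The 8 cardiomyocyte genes had a median of 28808 CPM in KO SH, beside 33498 CPM in WT SH, with ranges that overlapped (28346 to 29307 and 28909 to 40431 CPM). Myh7 ran against this sum, its KO SH mean of 1156.55 CPM lying above the WT SH mean of 576.6 CPM. The other genes of this list had lower means in KO SH. Myh6 was the most abundant of them, with a KO SH mean of 13853 CPM below a WT SH mean of 17633 CPM. The part of these cell markers in the differences of Atp1b2, Atp1b1 and, below, Fxyd6 was not tested.

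After infarction Atp1b1 was spread widely in the KO. WT MI replicates had 165.5, 172.6, 166.0 and 148.1 CPM, and KO MI replicates 1, 2, 3 and 7 had 162.7, 188.7, 171.4 and 119.9 CPM. KO MI replicate 7 was at the level of KO SH and the other 3 were at or above that of WT MI. The log2 fold change between genotypes was -0.02 (SE 0.099, 95% interval -0.23 to 0.19, adjusted p = 0.966, edgeR). Against KO SH, KO MI was higher by a log2 fold change of 0.38 (SE 0.0993, adjusted p = 0.0204, edgeR), and by 0.50 without replicate 7 (adjusted p = 0.000189).

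Atp1b3, the third beta subunit of these ventricles, did not pass the test in any comparison of the main fit. The main fit held all 16 libraries with 1 coefficient per group and no other term. A fit with a block for replicate number gave other values for Atp1b3, which are given at the end. It had 25.5 to 30.0 CPM in WT SH, 23.7 to 25.5 in KO SH, 26.7 to 28.2 in WT MI and 21.5 to 31.2 in KO MI. The log2 fold change of KO SH against WT SH was -0.20 (95% interval -0.38 to -0.02, adjusted p = 0.18, edgeR), and with only these 2 groups fitted the adjusted p was 0.0405, with the fold still under 0.5. KO MI replicate 7 again had the lowest value of its group, 21.5 CPM beside 29.5 to 31.2 CPM in the other 3. Without it the log2 fold change of KO MI against KO SH went from 0.20 (adjusted p = 0.157) to 0.30 (adjusted p = 0.00134, edgeR).

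**Figure D2:**
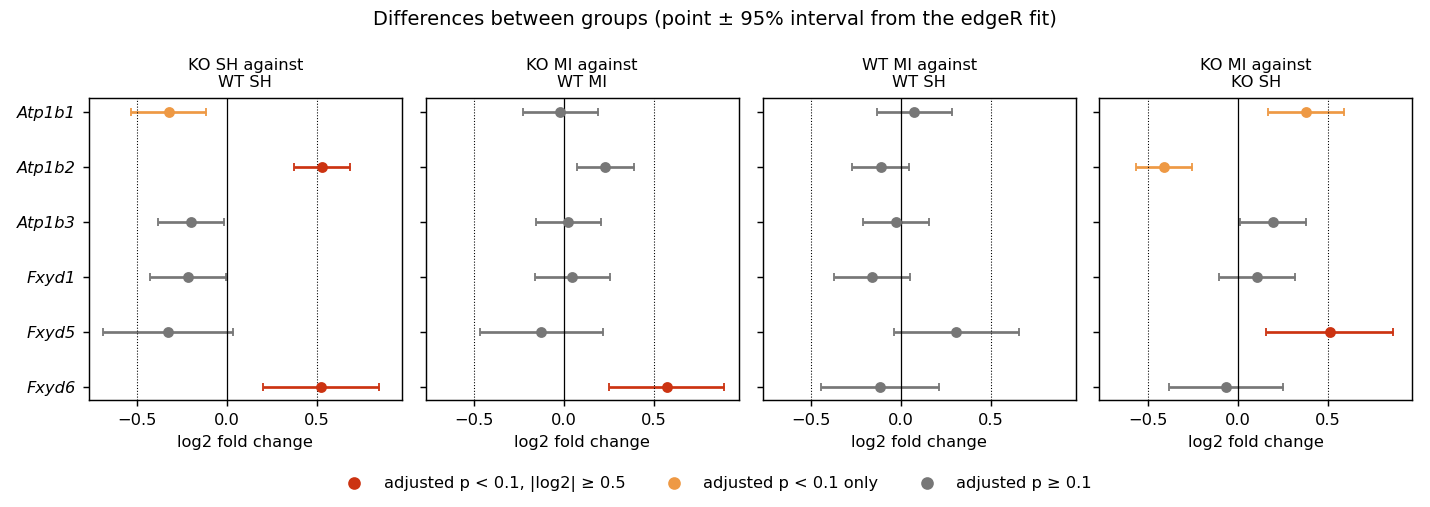
Log2 fold changes of the 6 members in the 4 comparisons with 95% intervals from the edgeR fit of all 16 libraries (horizontal axis, log2 scale; dotted lines at ±0.5), coloured by whether adjusted p under 0.1 and the fold of 0.5 were passed. Atp1b2 (0.53) and Fxyd6 (0.52) passed both in KO SH against WT SH, Fxyd6 (0.57) in KO MI against WT MI and Fxyd5 (0.51) in KO MI against KO SH.

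Fxyd6 was higher in the KO after both surgeries. WT SH replicates 1 to 4 had 6.63, 6.79, 5.03 and 9.38 CPM, and KO SH replicates 1 to 4 had 9.87, 9.16, 10.1 and 10.9 CPM. The groups overlapped because WT SH replicate 4 lay above KO SH replicate 2. Fxyd6 rose by a log2 fold change of 0.52 (SE 0.154, adjusted p = 0.0466, edgeR; exact permutation p = 0.0571). The call was kept in 4 of 8 fits that left out 1 library. It was lost without WT SH replicate 1 (0.498, adjusted p = 0.126), 2 (0.51, 0.104) or 3 (0.40, 0.121) or KO SH replicate 4 (0.477, 0.125), while without WT SH replicate 4 the log2 fold change was 0.70 (adjusted p = 0.00626). With a term for Xist it was 0.498 (adjusted p = 0.0849), under the fold.

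After infarction the genotypes did not overlap for Fxyd6. WT MI replicates 1 to 4 had 6.81, 6.61, 6.68 and 5.67 CPM, and KO MI replicates 1, 2, 3 and 7 had 9.82, 11.9, 9.17 and 7.22 CPM. Fxyd6 rose by a log2 fold change of 0.57 (SE 0.153, adjusted p = 0.0692, edgeR; exact permutation p = 0.0286). The adjusted p was 0.107 to 0.207 without any 1 of the 4 WT MI libraries or of KO MI replicates 1, 2 and 3, with log2 fold changes of 0.44 to 0.60, and it was 0.0151 without KO MI replicate 7. Without KO MI replicates 2 and 7 together, the libraries with the high skeletal muscle sums, the call was kept at 0.55 (adjusted p = 0.092, edgeR). Infarction itself left Fxyd6 within the spread of both genotypes, with log2 fold changes of -0.11 (95% interval -0.44 to 0.21) in WT and -0.07 (-0.38 to 0.25) in KO.

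Fxyd5 was the member called between infarction and sham surgery in the KO. Its counts were low, 63 to 159 per library. KO SH replicates 1 to 4 had 1.47, 1.73, 2.17 and 1.65 CPM, and KO MI replicates 1, 2, 3 and 7 had 2.07, 2.54, 3.06 and 2.33 CPM. The groups overlapped through KO SH replicate 3 and KO MI replicate 1. Fxyd5 rose by a log2 fold change of 0.51 (SE 0.169, adjusted p = 0.0584, edgeR; exact permutation p = 0.0571), and the call was kept in 3 of 8 fits that left out 1 library. It was lost without KO SH replicate 1 (0.43, adjusted p = 0.165), 2 (0.50, 0.114) or 4 (0.48, 0.131) and without KO MI replicate 2 (0.50, 0.128) or 3 (0.39, 0.191), and without KO MI replicates 2 and 7 together (0.54, 0.109).

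In WT the same contrast gave Fxyd5 a log2 fold change of 0.31 (SE 0.165, adjusted p = 0.373, edgeR), from 1.92 to 2.54 CPM after sham surgery to 2.204 to 3.21 CPM after infarction. The difference between the genotypes' responses, 0.20 (SE 0.236), had an adjusted p of 0.742. The macrophage, fibroblast and, in the KO, smooth muscle marker sums moved with Fxyd5. The 10 macrophage genes, among which Fcgr1 was at 0 in some KO SH libraries, summed to 27.1 to 29.5 CPM in KO SH and 38.9 to 106 CPM in KO MI, and the 8 fibroblast genes to 2054 to 2258 and 2820 to 3161 CPM. The 4 smooth muscle genes summed to 168 to 217 CPM in KO SH and 273 to 331 CPM in KO MI. In WT they were 30.6 to 36.8 and 43.5 to 77.5 CPM for macrophage genes, and 2196 to 2572 and 2666 to 3115 CPM for fibroblast genes, while the smooth muscle sums overlapped (203 to 322 and 223 to 362 CPM). The means of single fibroblast genes differed in this, given here as levels with no test. The mean of Col1a1, a collagen gene, was 392.3 CPM in KO SH and 613.7 CPM in KO MI, and that of Postn, a matrix protein gene, was 390.95 and 594.1 CPM. The mean of Pdgfra, a receptor that marks fibroblasts, was 63.3 CPM in both KO groups, and in WT it was 61.0 CPM after sham surgery and 58.6 CPM after infarction. Tcf21, a fibroblast transcription factor, had means of 18.7 and 21.8 CPM in KO and 21.9 and 20.2 CPM in WT. Most of the smooth muscle sum in the KO was Acta2, with a mean of 157.1 CPM after sham surgery and 258.02 CPM after infarction. Myh11 of the same list ran the other way in the KO, with means of 26.98 and 23.91 CPM. Cnn1 and Tagln had higher means in KO MI than in KO SH. The part of these cell markers in the Fxyd5 difference was not tested.

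Fxyd1 did not pass the test in any comparison of the main fit. It had 13.9 to 17.1 CPM in WT SH, 13.0 to 14.9 in KO SH, 12.8 to 15.97 in WT MI and 12.9 to 17.9 in KO MI, so all 4 groups overlapped. The largest of its 4 differences was KO SH against WT SH, with a log2 fold change of -0.22 (95% interval -0.43 to -0.01, adjusted p = 0.202, edgeR). With a term for Xist that difference was -0.29 with an adjusted p of 0.0842, and with only the 2 groups fitted the adjusted p was 0.0981, both under the fold of 0.5. The genes that act on phospholemman were also followed, namely subunits of protein kinase A, protein kinase C alpha, and protein phosphatase 1 with its inhibitor Ppp1r1a. None of these 9 genes was called in any comparison, beside 1.73% to 7.42% of all genes called between groups. With 9 genes, 0 calls are not readily set apart from these shares. Prkar1a, a regulatory subunit of protein kinase A, had a log2 fold change of 0.22 in KO MI against KO SH. Its adjusted p was 0.0747 (edgeR), and 17.5% of all genes had an adjusted p under 0.1 there. The groups overlapped, with an exact permutation p of 0.0571. KO MI replicates 1, 2, 3 and 7 had 350.6, 436.5, 350.0 and 309.5 CPM, beside 297.0 to 328.2 CPM in KO SH. Values of Prkar1a without single libraries are not given.

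Counted over the 6 members and read beside all 20159 genes tested, KO SH against WT SH had 2 called, both higher in KO (Atp1b2 and Fxyd6), beside 5.01% of all genes, and 3 with adjusted p under 0.1 alone, beside 12.3%. In KO MI against WT MI 1 member was called (Fxyd6), beside 1.73%, and 1 had adjusted p under 0.1, beside 3.07%. In WT MI against WT SH the edgeR test called 0 members, beside 2.78% of all genes called and 5.31% with adjusted p under 0.1, and DESeq2 called 0. There 0 members had an unadjusted p under 0.05 in edgeR, beside 3325 of all 20159 genes. In KO MI against KO SH 1 was called (Fxyd5), beside 7.42%, and 3 had adjusted p under 0.1, beside 17.5%. With 6 members a single call is not readily set apart from these backgrounds.

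Libraries of the groups did not overlap for 2 members in KO SH against WT SH (18.5% of all genes), for Fxyd6 in KO MI against WT MI (6.47%), for Atp1b2 in KO MI against KO SH (14.9%) and for 0 members in WT MI against WT SH (12.1%). Over the 6 members the median difference between genotypes on the log2 scale was -0.21 after sham surgery and 0.04 after infarction, and between infarction and sham surgery it was -0.07 in WT and 0.15 in KO. The comparisons that share a group also share its libraries.

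Whether the deletion acted differently after infarction than after sham surgery was tested as the difference of the 2 genotype effects. The test called 0 members, and 0.0248% of all genes. DESeq2 also called 0 members. With all libraries 2 members had an unadjusted p under 0.05 in edgeR, beside 2745 of all 20159 genes. Atp1b2 had a difference of -0.30 (SE 0.105, adjusted p = 0.242), and Atp1b1 had 0.31 (SE 0.14, adjusted p = 0.35). KO MI replicate 7 bore on this test. Without it Atp1b1 was at 0.42 (adjusted p = 0.0205), Atp1b2 at -0.36 (0.0369) and Atp1b3 at 0.33 (0.0262), all under the fold of 0.5, and the number of genes called in the whole table went from 5 to 840. Without both KO MI replicates 2 and 7 the 3 adjusted p values were 0.0588, 0.0832 and 0.0498.

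**Figure D3:**
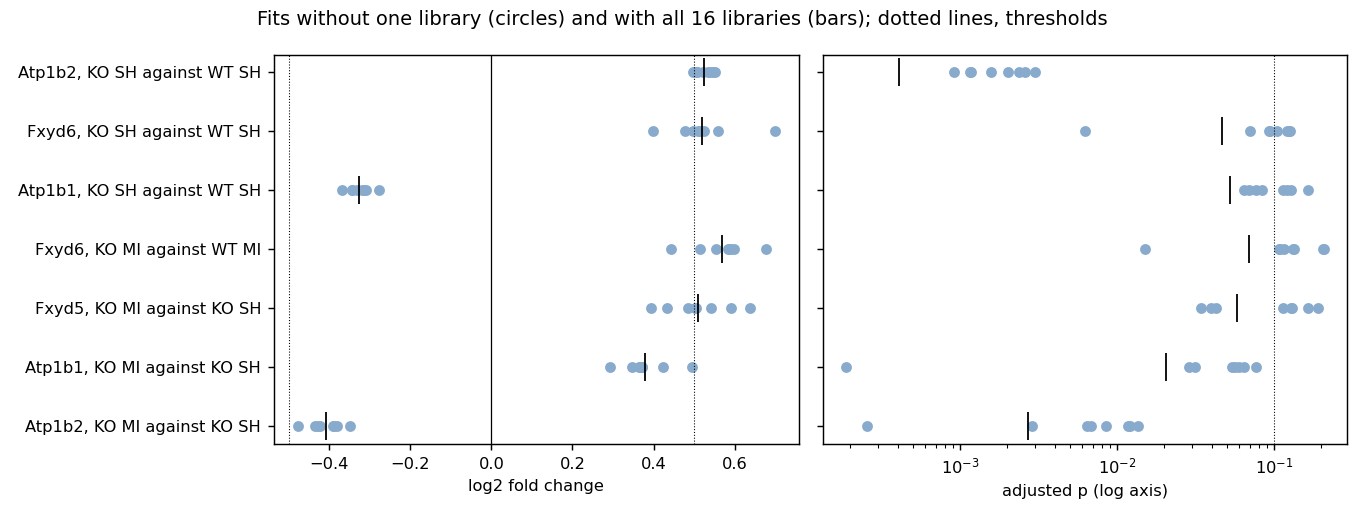
Log2 fold change (left) and adjusted p on a log axis (right) of 7 member differences with all 16 libraries (black bars) and in the 8 fits that leave out 1 library of the groups compared (circles), with dotted lines at ±0.5 and 0.1. Atp1b2 in KO SH against WT SH keeps an adjusted p of 0.000919 to 0.00298 in all 8 fits, while those of Fxyd6 and Fxyd5 cross 0.1.

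The make-up of the beta subunit transcripts, as shares of the summed CPM per kb of the 3 genes, followed these differences. Atp1b2 took 5.26% ± 0.38 (SD, n = 4) in WT SH, 8.93% ± 0.698 in KO SH, 4.71% ± 0.365 in WT MI and 5.71% ± 1.71 in KO MI. The KO SH share ran from 7.96% to 9.46%, above all WT libraries, and KO MI replicate 7 was at 8.14% beside 4.23% to 5.58% in the other 3. Atp1b1 took 75.0%, 70.7%, 76.5% and 75.2% in the same order. Among the 3 FXYD genes Fxyd6 took 16.3% ± 4.79 in WT SH, 24.7% ± 1.97 in KO SH, 16.1% ± 1.65 in WT MI and 21.7% ± 1.52 in KO MI, while Fxyd1 took 73.7%, 66.9%, 70.6% and 67.0%. These shares restate the levels above and were not tested.

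**Figure D4:**
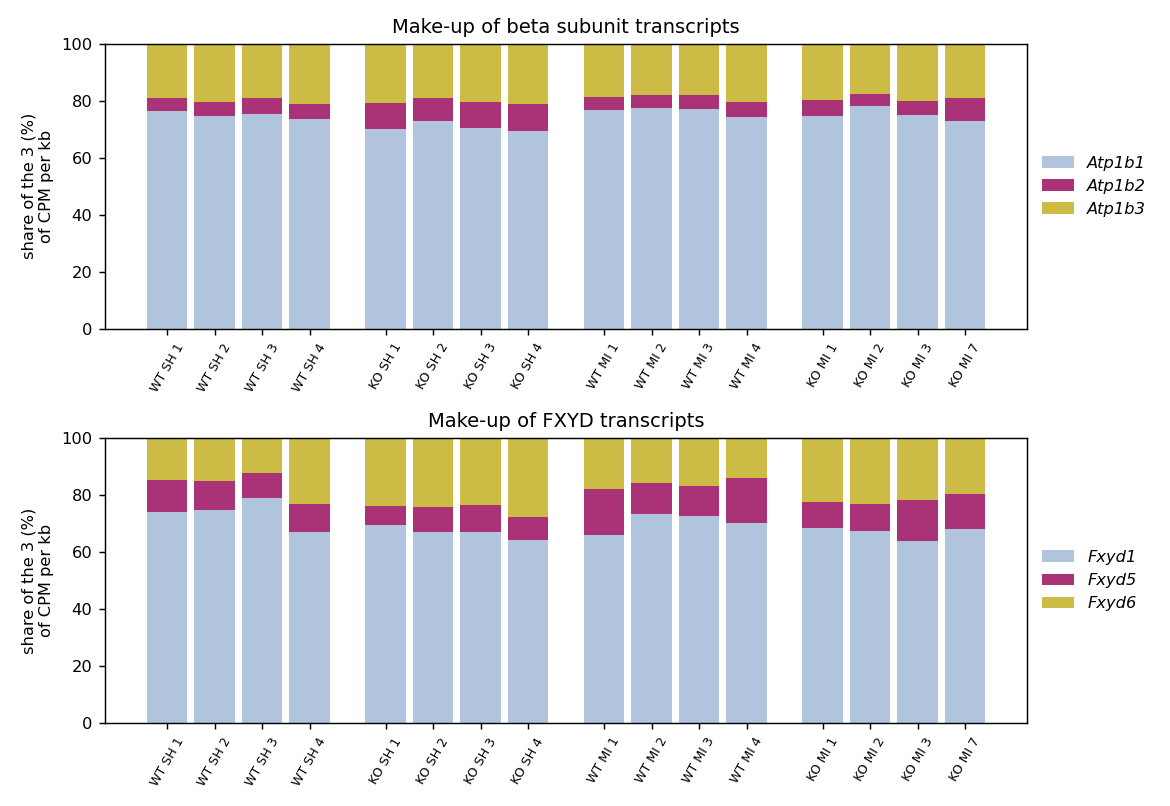
Shares of the 3 beta subunit genes (top) and the 3 FXYD genes (bottom) in their summed CPM per kb, in percent from 0 to 100, one bar per library. The Atp1b2 segment is widest in the KO SH bars (7.96% to 9.46%) and in KO MI replicate 7 (8.14%).

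Of the remaining family members, Atp1b4, which in mammals is known as a nuclear membrane protein of muscle rather than a pump subunit, rose in KO MI against KO SH by a log2 fold change of 3.51 (SE 0.885, adjusted p = 0.0171, edgeR). KO MI replicates 2 and 7 had 3.603 and 3.64 CPM, and replicates 1 and 3 had 0.0203 and 0.308 CPM beside 0.125 to 0.21 CPM in KO SH. Without replicates 2 and 7, the libraries with the high skeletal muscle sums, the log2 fold change was 0.03 (adjusted p = 0.987, edgeR). Replicates 2 and 7 were also the highest for Atp1b4, so leaving them out had to lower the fold. That value therefore says nothing of a link between Atp1b4 and the skeletal muscle genes, which was not tested. Fxyd2, Fxyd3, Fxyd4 and Fxyd7, known from kidney, epithelia and brain, had few counts. Fxyd2 had 0 to 9 per library, Fxyd3 0 to 10, Fxyd7 2 to 12 and Fxyd4 3 to 18, with mean levels of 0.110, 0.0735, 0.134 and 0.231 CPM in that order. A count of 0 allows up to 3 counts, or 0.0577 to 0.0858 CPM. Fxyd4 thus lay above that limit in most libraries. Of the 3 that were tested (not Fxyd3), 0 were called, beside 1.73% to 7.42% of all genes called between groups.

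**Figure D5:**
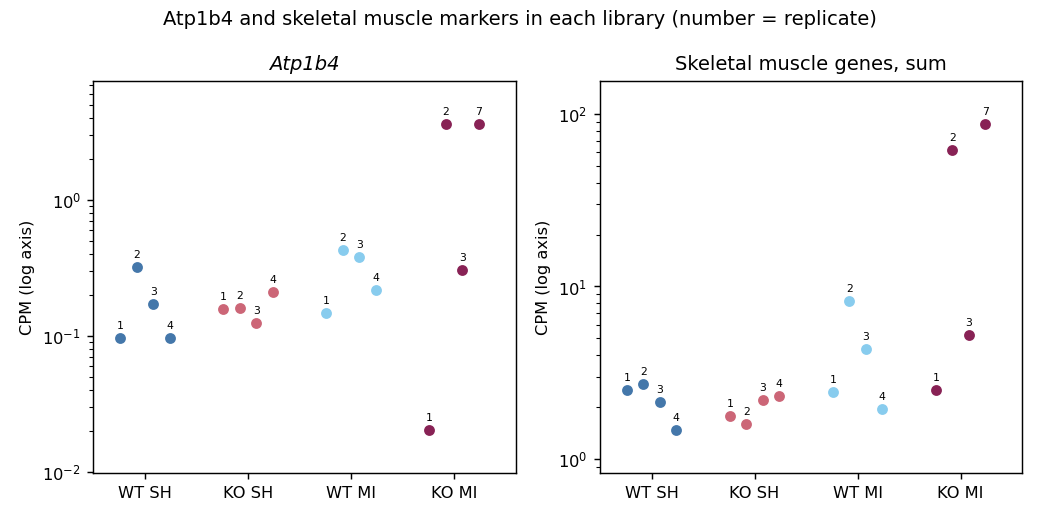
CPM in each library of Atp1b4 (left) and of the summed 10 skeletal muscle genes (right), on log axes, with points numbered by replicate. KO MI replicates 2 and 7 are highest for both, with 3.603 and 3.64 CPM of Atp1b4 and 61.4 and 87.4 CPM of the skeletal muscle genes.

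Among 7 genes related to the pump (Atp12a, Atp4a, Atp4b and Nkain1 to Nkain4), 4 were tested. Nkain4, which encodes a protein that binds the beta subunit, rose in WT MI against WT SH (log2 fold change 1.21, SE 0.372, adjusted p = 0.0921, edgeR), from 0.508 to 0.686 CPM to 0.694 to 2.26 CPM, and lost the call in 6 of 8 fits without 1 library, namely each of the 4 WT SH libraries and WT MI replicates 2 and 3 (adjusted p 0.112 to 0.303). Nkain3 rose in KO MI against KO SH (log2 fold change 0.98, SE 0.249, adjusted p = 0.0177, edgeR), from 0.629 to 0.918 CPM to 1.22 to 1.93 CPM.

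Of 7 genes for transport driven by the sodium gradient, 1 was called, in KO MI against KO SH, beside 7.42% of all genes there. Slc8a1, the cardiac sodium-calcium exchanger, rose there by a log2 fold change of 0.53 (SE 0.0894, adjusted p = 0.00206, edgeR), from 361.0 to 402.6 CPM to 504.1 to 660.8 CPM. Without KO MI replicate 2 the log2 fold change was 0.42 (adjusted p = 0.00316) and without replicates 2 and 7 it was 0.40 (adjusted p = 0.00477). The median log2 fold change of the 7 genes there was 0.13. With adjusted p alone 1 was higher and 2 were lower there, beside 17.5% of all genes that passed. In KO SH against WT SH 1 was lower with adjusted p alone, beside 12.3% of all genes that passed.

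By a rule based on the Pearson correlation of log2(CPM + 0.5) over the 16 libraries among 12124 protein-coding genes, the genes most like each member were named as a description with no test. They share libraries, depth and group differences with the member. For Atp1b1 these were Srebf2 (r = 0.976, Spearman rho 0.926, and r = 0.955 after group means were removed), Edem1 (r = 0.945, rho 0.935, 0.888) and Fdps (r = 0.943, rho 0.932, 0.893). For Atp1b2 they were Atf7ip (r = 0.954, rho 0.885, 0.814), Agrn (r = 0.95, rho 0.915, 0.816) and Galnt15 (r = 0.947, rho 0.894, 0.587). For Atp1b3 they were Rab5if (r = 0.913, rho 0.874, 0.90) and Slc31a1 (r = 0.906, rho 0.862, 0.869).

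The list for Fxyd1 held Mak16 (r = 0.927, rho 0.903, 0.928), 2310022A10Rik (r = 0.866, rho 0.771, 0.914) and Dnajc11 (r = 0.857, rho 0.897, 0.806). That for Fxyd5 held Vim, the gene of the intermediate filament of non-muscle cells (r = 0.86, rho 0.824, 0.65), and Alox5ap (r = 0.83, rho 0.856, 0.614). That for Fxyd6 held Hcn4, a pacemaker channel (r = 0.906, rho 0.879, 0.74), Rdx (r = 0.891, rho 0.824, 0.814) and Tspan3 (r = 0.889, rho 0.80, 0.756). Between members, Atp1b1 and Atp1b2 ran opposite ways over the libraries (r = -0.86, rho -0.77, and -0.80 after group means were removed), again with no test.

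In the annotation Atp1b1 lies at chr1:164264678-164285957 on the minus strand and overlaps the ends of Nme7 and of the long non-coding RNA Gm32391, both on the other strand. Long non-coding RNAs on the same strand, Gm68867 and Gm67863, overlap Atp1b3 and Fxyd6, and reads from shared bases cannot be told apart. Fxyd5 (chr7:30732147-30741906) and Fxyd1 (chr7:30751092-30756677) are neighbours on the minus strand, with Fxyd7 between them, and differed in what was called. Fxyd6 lies at chr9:45281302-45307457 next to Fxyd2, Atp1b2 at chr11:69487651-69496851 and Atp1b3 at chr9:96214674-96246814. Within 1 Mb of a member, between 23 and 85 genes were tested and 0 to 5 were called in a comparison, where 1.73% to 7.42% of all genes were called. Near Atp1b2, 2 of 85 were called in KO SH against WT SH (Efnb3 and Per1), and near Fxyd6 1 of 54 (E030022I16Rik). Of all genes, 5.01% were called in that comparison.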

How the data were processed

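The authors deposited 1 table of RSEM expected counts per gene, already whole numbers and not normalized, for 16 libraries (GRCm39). Stranded total RNA libraries were read as 150 bases from both ends. The submitters' processing notes name bcl2fastq 2.17, cutadapt 3.4, FastQC, HISAT2 2.2.1, RSEM 1.1.17 and DESeq2, whereas the study's methods name Skewer and STAR, and which of these made the table could not be told. The sharing of reads among overlapping or similar genes can shift levels of single genes.

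Groups came from the labels. Identifiers were matched to GENCODE M39 (47772 of 51912). The 16 libraries were fitted together in edgeR 4.0.16 (R 4.3.3, limma 3.58.1), with TMM scaling (factors 0.905 to 1.11), a filter that kept genes whose counts summed to 10 or more within every group (20159 genes), 1 coefficient per group and the two-sided quasi-likelihood F-test, with p-values adjusted over all genes tested (Benjamini-Hochberg). A gene was called when its adjusted p was under 0.1 and its log2 fold change was 0.5 or more in size, as in the study's methods. Single members were also tested by an exact two-sided permutation test on log2(CPM + 0.5) over 70 splits. Alternatives were DESeq2 1.42.0, its size factors, other filters and thresholds, a robust fit, removal of mitochondrially encoded genes, a term for Xist, a replicate block, the compared groups alone and single libraries left out. Leaving out KO MI replicates 2 and 7 together was chosen after seeing the data.

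Members are always named. Genes of the other lists are named where they are a subunit or FXYD gene or were called, with the 3 protein-coding genes of at least 1 CPM most correlated with each member. Some genes that these rules would name are not reported here. Prkar1a, neighbouring genes and single markers were named after their values were seen. The members and lists were chosen with earlier results of these data known. No pair of replicates agreed within sampling noise (chi-square per gene 4.70 to 62.9), and p-values measure only the spread between these libraries, since nothing in the labels ties them to separate animals. Floors cover counting error only. Promoters were read from GRCm39 at GENCODE M39 canonical starts.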

Additional observations from a re-analysis of the deposited data

Results flagged for a closer look

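In 40 groups of 4 libraries examined for the members and the other levels described, 2 single libraries stood farther from their group than Dixon's 95% criterion allows, and chance flags about 1 in 20 groups. Atp1b1 was at 134.165 CPM in KO SH replicate 2, beside 119.1 to 121.4 CPM in the other 3, and the KO SH group remained below WT SH with or without it. Fxyd1 was at 13.9055 CPM in WT SH replicate 4, beside 16.9 to 17.1 CPM in the other 3, and without it the log2 fold change of Fxyd1 in KO SH against WT SH went from -0.22 to -0.28 (adjusted p = 0.0897, edgeR).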

How the results depend on the processing

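Of 768 values (37 gene results over the alternatives), 711 kept direction and side of the call, 4 gained a call and 17 changed sign. Only results called in the main fit could lose the call, and 36 values did. Fxyd6 in KO MI against WT MI lost it most, in 9 of 20. Atp1b2 in KO SH against WT SH had log2 fold changes of 0.497 to 0.56 in 19 alternatives and lost it in 1, without KO SH replicate 4. The number of members called in KO SH against WT SH went from 2 to 1 with a term for Xist, and was 0 to 2 without single libraries. In KO MI against WT MI it went from 1 to 0 at adjusted p under 0.05 and with only the compared groups fitted (Fxyd6 adjusted p = 0.125), and was 0 to 1 without single libraries. In KO MI against KO SH it went from 1 to 0 at adjusted p under 0.05, to 0 with only the compared groups (Fxyd5 adjusted p = 0.104), to 0 without KO MI replicates 2 and 7, and to 3 with no minimum fold, and was 0 to 1 without single libraries. The exact permutation test had 4 of 24 single tests under 0.05, and 3 to 7 without single libraries, the 7 without KO MI replicate 7. With 4 libraries against 4 the only p under 0.05 is 0.0286, which needs groups that do not overlap. The 4 thus restate the non-overlaps given above, beside 6.47% to 18.5% of all genes in a comparison. No such share was counted without single libraries.

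By adjusted p alone, 3 members passed in KO SH against WT SH, beside 12.3% of all genes. With only the compared groups fitted 5 passed (Atp1b3 and Fxyd1 joining), and with the replicate block 4 passed (Atp1b3 joining). The share of all genes was not counted for these alternatives, so the 5 and the 4 have no background.

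Signs changed for small differences. For Atp1b1 in KO MI against WT MI the log2 fold change was 0.0763 with the replicate block, 0.0274 without KO MI replicates 2 and 7, and -0.107 to 0.0956 without single libraries. For Fxyd1 there it was -0.00255 without KO MI replicates 2 and 7, and -0.0503 to 0.109 without single libraries. Atp1b3 there ran from -0.0328 to 0.128 without single libraries. Fxyd6 in KO MI against KO SH was 0.0855 with the replicate block and -0.191 to 0.042 without single libraries. In WT MI against WT SH single libraries moved Atp1b3 between -0.0674 and 0.00926 and Fxyd6 between -0.236 and 0.0643, and the Fxyd6 difference of genotype effects between -0.129 and 0.171. Causes were not tested.

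The numbers of replicates did not pair the libraries. Deviations from group means correlated at -0.131 to 0.175 over 21 same-numbered pairs and at -0.147 to 0.185 otherwise, and 4 of 16 libraries correlated best with their own number. A fit with the replicate block, in which KO MI replicate 7 has no partner and so carries no weight, changed no call of a member. Atp1b3 had adjusted p values with the block of 0.0214 in KO SH against WT SH and 0.00138 in KO MI against KO SH, both under the fold. The block gave adjusted p values of 0.032 for Atp1b1, 0.0509 for Atp1b2 and 0.0279 for Atp1b3 in the difference of genotype effects, all under the fold of 0.5, and 689 genes called in the whole table beside 5 without the block. Over all genes, calls ranged over the alternatives from 199 to 619 in KO MI against WT MI (348 as reported), 661 to 2486 in KO SH against WT SH (1010), 283 to 1071 in WT MI against WT SH (560), 885 to 3536 in KO MI against KO SH (1495) and 2 to 840 for the difference of genotype effects, with 211 in DESeq2. Levels in CPM, not fold changes, rise when mitochondrially encoded genes are left out of the total, for Atp1b1 in WT SH from 154.9 to 280.4. Depth limits Fxyd5 and genes near the floor.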
